A study of Rattus norvegicus with 24 samples.

Results

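The genes described here move calcium in the skeletal muscle fibre. The list named 10 of them (Cacna1s, Stac3, Jph1, Ryr1, Casq1, Casq2, Pvalb, Atp2a1, Sln and Pln), which were matched by gene symbol. It was chosen with earlier results of these data known. The count table held 8 of these 10 symbols among its 10851 genes, and Sln and Pln were not analysed here. Expression was measured by poly-A RNA-seq of the medial gastrocnemius of the left hind limb in 24 male Wistar rats, with 6 rats per group and each rat as a separate library. Control rats received saline and cardiac cachexia (CC) rats a single injection of monocrotaline, a toxin that injures the lung vessels, overloads the right ventricle and leads to heart failure with wasting. Within each of these, rats stayed sedentary or trained on a treadmill, and the groups are called Sed and Ex for control rats and CC-Sed and CC-Ex for CC rats. The age of the rats was not given in the sources used here. Rats given monocrotaline that died or that did not show right ventricle enlargement had been left out by the study, so the CC groups were surviving, affected animals.

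In a muscle fibre, an action potential reaches the transverse tubule, where the voltage sensor Cacna1s, held in place with the help of the adaptor Stac3, opens the release channel Ryr1 of the sarcoplasmic reticulum. Jph1, a junctophilin, ties the tubule membrane to the reticulum so that sensor and channel face each other. Calcium inside the reticulum is bound by calsequestrin, with Casq1 as the main form of fast fibres and Casq2 as the form of heart and slow fibres. After release, the soluble buffer parvalbumin (Pvalb) binds calcium in the cytosol of fast fibres, and the pump SERCA1 (Atp2a1) returns it to the reticulum. The slow-fibre and cardiac pump, SERCA2 (Atp2a2), was not a member and is given only for comparison.

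The start regions of 4 of these genes are shown because Casq1 and Stac3 gave the 2 called differences described below, Pvalb varied most closely with Casq1 among the members, and Casq2 varied differently from Casq1. Each run is the 250 bases before the start site, read 5′ to 3′ in the direction of the gene, from RefSeq on the build GRCr8. This build differs from mRatBN7.2, on which the counts rest, so that the positions were not joined to the count data. Capitals mark CAGCTG, an E-box of the type bound by myogenic factors such as MyoD and myogenin.
Casq1, chr13:87212711-87212960, minus strand: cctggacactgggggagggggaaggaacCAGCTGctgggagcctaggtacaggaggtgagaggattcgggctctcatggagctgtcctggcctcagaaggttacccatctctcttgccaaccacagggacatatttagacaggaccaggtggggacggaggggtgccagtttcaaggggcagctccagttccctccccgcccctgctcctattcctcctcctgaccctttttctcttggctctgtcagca
Pvalb, chr7:111666290-111666539, minus strand: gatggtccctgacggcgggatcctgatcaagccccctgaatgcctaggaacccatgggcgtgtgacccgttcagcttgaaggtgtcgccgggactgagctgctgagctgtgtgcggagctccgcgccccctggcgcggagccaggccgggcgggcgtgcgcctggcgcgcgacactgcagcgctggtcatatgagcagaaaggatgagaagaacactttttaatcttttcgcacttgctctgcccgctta
Stac3, chr7:65228225-65228474, plus strand: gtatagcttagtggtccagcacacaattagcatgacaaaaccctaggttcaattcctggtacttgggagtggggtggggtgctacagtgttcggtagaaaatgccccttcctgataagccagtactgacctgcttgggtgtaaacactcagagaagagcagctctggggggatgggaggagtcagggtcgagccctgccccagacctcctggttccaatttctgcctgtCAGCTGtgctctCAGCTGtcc
Casq2, chr2:192214306-192214555, plus strand: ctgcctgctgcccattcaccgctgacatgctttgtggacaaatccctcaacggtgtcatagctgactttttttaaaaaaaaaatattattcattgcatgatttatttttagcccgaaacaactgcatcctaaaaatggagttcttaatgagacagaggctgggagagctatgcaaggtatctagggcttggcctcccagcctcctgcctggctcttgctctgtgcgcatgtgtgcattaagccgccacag
The table of start regions matched 7 of the 8 measured members, all but Jph1. CAGCTG, which reads the same on both strands, stood 222 bases before the start site of Casq1, 21 and 9 bases before that of Stac3, 41 bases before that of Atp2a1, and 197 and 62 bases before that of Cacna1s. These letters were not found in the windows of Pvalb, Casq2 and Ryr1. Over all 33469 start regions of this length, 12% held CAGCTG on either strand. The looser E-box CANNTG, which includes CAGCTG, was found in all 7 windows and in 65.5% of all start regions. CTA and TAG set 4 bases apart, as in sites of MEF2, were found in none of the 7 windows and in 3.41% of all, the MCAT letters CATTCC in that of Cacna1s alone and in 12.1% of all, and GGAAA, the core of NFAT sites, in none of the 7 and in 56.9% of all. A match describes these letters and not binding.

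The libraries held from 37816239 to 50350554 counts. Each member had at least 153 counts in every rat, and the spread between animals limited the comparisons more than the depth. Of 10 fast-fibre markers, 8 were in the table under the listed symbols, and their summed level lay between 69074 and 211221 CPM (counts scaled to the TMM library size). Of 6 cardiac muscle markers only Tnnt2 was in the table, at 34.6 CPM or less. The summed level of the 7 slow-fibre markers in the table (of 11; Myh7, Myl2, Tnnt1 and Myl6b were not analysed here) ran from 36.2 to 8463 CPM. It was lowest in CC-Ex replicates 4 and 5, at 36.2 and 47.8 CPM, while the other 4 CC-Ex rats lay between 3107 and 6164 CPM. These rats were also often at the extremes for calcium genes, though not for these alone. Over a wider list of 52 calcium genes, CC-Ex replicate 5 was the lowest of the 24 rats for 21 genes and CC-Ex replicate 4 the highest for 15. Such counts were not made over all genes. CC-Ex replicate 5 was also the lowest for Col1a1, Acta2 and Hbb, markers of other cell types. CC-Ex replicate 4 was also the highest for the fast-fibre markers Myh4 and Myl1. Results are therefore also given without these rats. As the rats were singled out after seeing the data, partly by calcium genes themselves, those fits are not an independent check. As whole muscle was sequenced, fewer fibres of a type and less RNA per fibre cannot be told apart.

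Casq1 and Stac3 were lower in the CC rats. Averaged over sedentary and exercised rats, Casq1 fell from a mean of 3391 to 1989 CPM, a log2 fold change (Log2FC) of -0.79 (SE 0.239, 95% interval -1.28 to -0.29, 12 against 12 rats), and Stac3 fell from 223 to 179 CPM, a Log2FC of -0.31 (SE 0.111, 95% interval -0.55 to -0.08). The adjusted p-values were 0.0199 for Casq1 and 0.0396 for Stac3 (edgeR quasi-likelihood F test, Benjamini-Hochberg over 10851 genes). For each of these genes, 11 of 12 CC rats lay below the median of the 12 control rats, and the exception was CC-Ex replicate 4. So 2 of 8 members fell and none rose, while 27.8% of all genes passed the same threshold, 10.6% falling and 17.2% rising. The share of members called, in either direction, was near that of all genes. Before adjustment, 4 of 8 members had a p under 0.05, against 42.4% of all genes. The median Log2FC of the members was -0.28, against 0.01 for all genes, and 5 of the 8 values were negative, against 48.1% of all genes. Without CC-Ex replicates 4 and 5, Casq1 gave -0.89 (adjusted p = 0.00693) and Stac3 -0.30 (adjusted p = 0.0135), and Pvalb and Jph1 also passed, while 29.2% of all genes were called. This fit leaves out CC-Ex replicate 4, the exception for Casq1 and Stac3, so its lower adjusted p-values are no independent support.

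**Figure D1:**
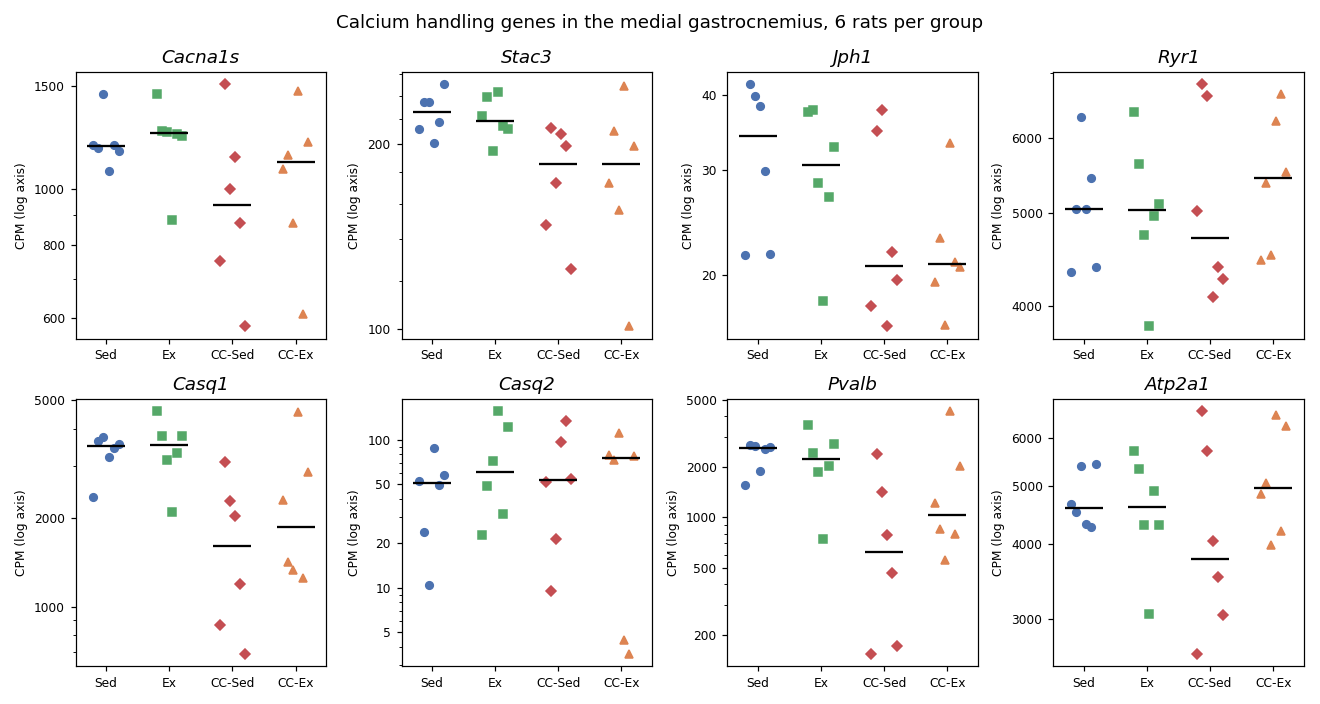
Expression in CPM (log axes, a separate range for each gene) of the 8 measured members in each of 6 rats per group, with a line at the group median. Casq1, Pvalb and Stac3 lie lower in most CC-Sed and CC-Ex rats than in the control rats, with CC-Ex replicate 4 the highest of its group in each, while Ryr1 and Atp2a1 overlap across the 4 groups.

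Among the genes of the tubule and the junction, Stac3 was called and Cacna1s and Jph1 were not. Stac3 lay between 201 and 251 CPM in Sed (median 226), between 195 and 243 in Ex (median 218), between 125 and 212 in CC-Sed (median 186) and between 101 and 249 in CC-Ex (median 186). The control rats were tightly grouped, with a coefficient of variation of 8.02% in Sed, whereas the CC-Ex rats spread by 27.9%. The call of Stac3 depended on single rats. Its Log2FC stayed between -0.37 and -0.27 with any one of the 24 left out, and it was called in 13 of these fits, but the adjusted p rose above 0.05, reaching at most 0.0673, without Sed replicate 2, 3 or 6, Ex replicate 1, 2, 4 or 6, CC-Sed replicate 1, 3 or 6, or CC-Ex replicate 3. Cacna1s, the voltage sensor, had medians of 1182 (Sed), 1245 (Ex), 936 (CC-Sed) and 1112 CPM (CC-Ex), and its average CC difference was -0.25 (SE 0.14, adjusted p = 0.172), with 10 of 12 CC rats below the control median. The Sed rats had 21.6 to 41.7 CPM of Jph1 and the Ex rats 18.1 to 37.8. Among CC-Sed rats it ranged from 16.4 to 37.8 CPM, with 4 rats between 16.4 and 21.9 and the other two at 34.8 and 37.8, and in CC-Ex 5 rats lay between 16.5 and 23.1 and replicate 4 at 33.3. Its average CC difference was -0.41 (SE 0.165, adjusted p = 0.0642), and it passed the threshold with Sed replicate 1 or 6, Ex replicate 4, CC-Sed replicate 2 or 3, or CC-Ex replicate 4 left out, at adjusted p-values between 0.026 and 0.0473. Jph1 was called under 5 of the 10 other settings of the model. Among these, with all 24 rats, were upper-quartile scaling, limma-voom and the library number as a covariate.

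Ryr1, the release channel, did not differ detectably. Its medians were 5051 (Sed), 5042 (Ex), 4714 (CC-Sed) and 5449.8 CPM (CC-Ex), and the average CC difference was 0.06 (SE 0.113, adjusted p = 0.684), with a 95% interval from -0.17 to 0.30. This interval leaves out a change as large as that of Casq1.

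The calsequestrin genes behaved differently from each other. Casq1 was measured in Sed at 2359.85, 3651, 3754, 3219, 3451 and 3546 CPM in replicates 1 to 6, and in CC-Sed at 864, 3097, 2275, 2029.65, 1189 and 692 CPM. Only CC-Sed replicate 2 lay within the range of the Sed rats, and all 6 CC-Sed rats lay below the Sed median of 3498 CPM. In Ex the values were 4597, 3777, 3135, 2093, 3314 and 3791 CPM, and in CC-Ex 2292, 1418, 1328, 4584, 1246 and 2852 CPM, so that all but replicate 4 of the CC-Ex rats lay below the median of Ex (3545 CPM). Casq2 was far more variable. Its values ran from 3.59 CPM in CC-Ex replicate 5 to 156 CPM in Ex replicate 4, a 43.4-fold range, and its within-group SD of log2 CPM of 1.55 was above that of 99.7% of all genes. Its medians were 51.02 (Sed), 60.1 (Ex), 53.3 (CC-Sed) and 75.5 CPM (CC-Ex), and no CC difference was detectable at this spread (average 0.01, SE 0.502, 95% interval -1.04 to 1.06, adjusted p = 0.993). The interval leaves room for a change of the size seen for Casq1 in either direction. Casq2 counts per 100 Casq1 counts had a median of 1.53 among Sed rats (range 0.279 to 2.71), 1.79 among Ex rats (0.493 to 7.45), 5.39 among CC-Sed rats (0.307 to 11.3) and 3.09 among CC-Ex rats (0.0968 to 8.43), and all of these ranges overlapped.

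Pvalb varied widely in the CC rats. It lay between 1556 and 2711 CPM in Sed (median 2594) and between 742 and 3547 in Ex (median 2225). In CC-Sed it ran from 155 CPM in replicate 1 to 2372 in replicate 2 (median 627), and in CC-Ex from 557 CPM in replicate 3 to 4281 in replicate 4 (median 1037). The SD of its log2 CPM was 0.33 (Sed) and 0.78 (Ex) for controls, and 1.60 (CC-Sed) and 1.07 (CC-Ex) for CC rats. Below the median of their controls lay all 6 CC-Sed rats and 5 of the 6 CC-Ex rats, but the average difference of -0.92 (SE 0.394) did not pass the threshold (adjusted p = 0.0800). It passed without CC-Sed replicate 2 (-1.21, adjusted p = 0.0205) or CC-Ex replicate 4 (-1.21, adjusted p = 0.0182). These were the CC rats with the highest Pvalb level in their groups. Pvalb was also called under 5 of the 10 other settings of the model, including DESeq2 and limma-voom with no rat left out. The rest of these 5 were the slow-fibre score, the fast-fibre score and the fit without CC-Ex replicates 4 and 5. Over the 10 settings its adjusted p ran from 0.0042 to 0.0808. Atp2a1, the pump, did not differ detectably: its medians were 4591 (Sed), 4599.77 (Ex), 3781 (CC-Sed) and 4949.65 CPM (CC-Ex), and the average difference was 0.002 (SE 0.144, 95% interval -0.30 to 0.30, adjusted p = 0.991). In CC-Sed its values split, with replicates 2 and 3 at 6650.5 and 5717 CPM and the other 4 rats between 2626 and 4043.

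**Figure D2:**
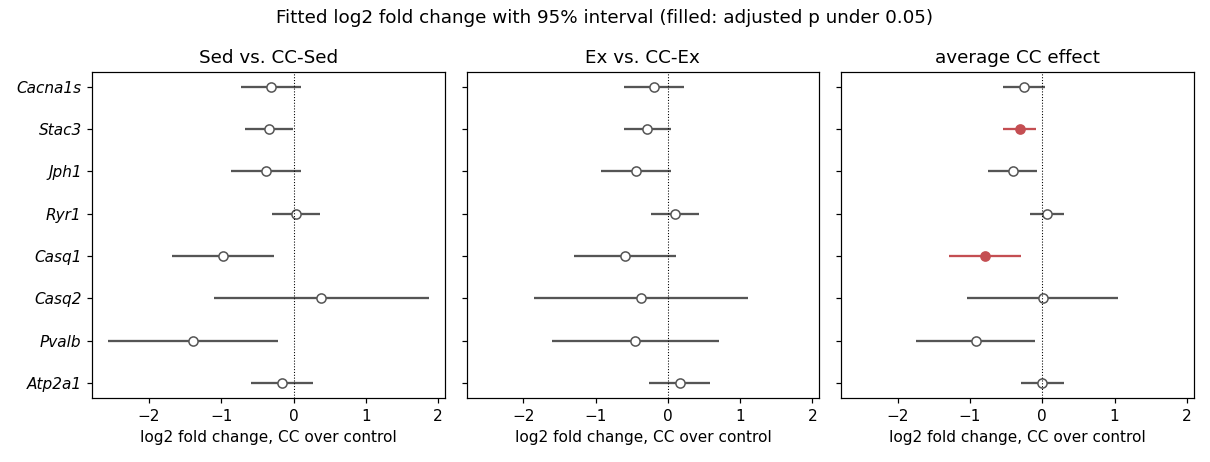
Fitted Log2FC (points) and 95% interval (lines) of the 8 members for CC over control in sedentary rats, in exercised rats and on average, with filled points for an adjusted p under 0.05. Only Casq1 (-0.79) and Stac3 (-0.31) are filled, in the average panel, and the intervals of Casq2 and Pvalb are the widest.

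In the separate comparisons no member was called. In Sed vs. CC-Sed, where 6.46% of all genes passed, the largest differences were those of Pvalb (-1.39, SE 0.563, adjusted p = 0.117) and Casq1 (-0.98, SE 0.339, adjusted p = 0.0745), followed by Casq2 (0.39, SE 0.712), Jph1 (-0.38, SE 0.233), Stac3 (-0.34, SE 0.158, adjusted p = 0.158), Cacna1s (-0.31, SE 0.199), Atp2a1 (-0.16, SE 0.203) and Ryr1 (0.03, SE 0.16). Before adjustment, 3 of 8 members had a p under 0.05 (Casq1, Pvalb and Stac3), against 28.4% of all genes. Other tools and other sets of rats moved this count and the share of all genes called: DESeq2 called Casq1 (12.3% of all genes), limma-voom called Casq1, Pvalb and Stac3 (22.8%), the fit without CC-Sed replicate 2 called Casq1 (-1.24, adjusted p = 0.0261) and Pvalb (-1.97, adjusted p = 0.0298) with 12% of all genes, and the fit without CC-Ex replicates 4 and 5 called Casq1 and Stac3 (22.3%). In Ex vs. CC-Ex, where 0.995% of all genes passed, no member had an unadjusted p under 0.05, against 22.6% of all genes. The differences were -0.59 for Casq1 (SE 0.337, adjusted p = 0.283), -0.45 for Pvalb (SE 0.554), -0.44 for Jph1 (SE 0.233), -0.37 for Casq2 (SE 0.711), -0.29 for Stac3 (SE 0.158), -0.20 for Cacna1s (SE 0.199), 0.16 for Atp2a1 (SE 0.203) and 0.10 for Ryr1 (SE 0.16). For every member the rats of the compared groups overlapped, whereas 3.61% of all genes did not overlap in Sed vs. CC-Sed and 1.08% in Ex vs. CC-Ex.

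No effect of training on a member was detected. In Sed vs. Ex, CC-Sed vs. CC-Ex, the average of these and the interaction, edgeR called 0 members and 0 genes of the whole table (0%), and no member had an unadjusted p under 0.05, against 1.09%, 2.16%, 1.75% and 1.42% of all genes. DESeq2 and limma-voom also called 0 members in these comparisons. In CC-Sed vs. CC-Ex, Pvalb was 0.86 higher in the trained rats (SE 0.557, 95% interval -0.30 to 2.02), Casq1 0.44 (SE 0.336, interval -0.27 to 1.14) and Atp2a1 0.27 (SE 0.203, interval -0.15 to 0.70), each with an adjusted p of 1.00. All 6 CC-Ex rats lay above the CC-Sed median of Atp2a1, 5 of 6 for Pvalb and 3 of 6 for Casq1. Without CC-Ex replicate 4 the Pvalb difference was 0.29 and the Casq1 difference 0.11. The difference between the CC effects of exercised and sedentary rats was 0.93 for Pvalb (SE 0.784, interval -0.70 to 2.57) and 0.38 for Casq1 (SE 0.475, interval -0.61 to 1.37), so that a sizeable effect of training in either direction was within the interval. In control rats the largest training difference of a member was that of Casq2, at 0.68 (SE 0.714), and those of the other 7 lay between -0.09 and 0.05. These comparisons share groups with those of CC and are not independent of them.

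Across the 24 rats the members showed different patterns, given as a description because the points share the groups and the libraries. Casq1 and Pvalb varied together (Pearson's r = 0.968, and 0.966 with the group means removed), and within groups both varied with Atp2a1 (r = 0.863 and 0.922) and Cacna1s (0.871 and 0.836). Casq2 ran the other way from Ryr1 (-0.789 within groups) and together with Atp2a2 (0.896). Jph1 varied with Ryr1 (0.83), and Stac3 with Cacna1s (0.796) but not with Ryr1 (0.01). Atp2a2 itself, the slow-fibre pump, had medians of 1122 (Sed), 1721 (Ex), 2704 (CC-Sed) and 2454 CPM (CC-Ex). Its difference in Sed vs. CC-Sed was 1.13 (SE 0.431, adjusted p = 0.0972) and on average 0.65 (SE 0.303, adjusted p = 0.106), and it passed on average without Ex replicate 4 (0.84, adjusted p = 0.0386) and without CC-Ex replicates 4 and 5 (0.84, adjusted p = 0.0267). With all 24 rats it also passed on average with limma-voom and with a slow-fibre score, described below, as a covariate. In Sed vs. CC-Sed it passed under 1 of 11 other settings, without CC-Ex replicates 4 and 5 (adjusted p = 0.0357). Atp2a2 was among the genes that the paper, which used DESeq2, reported as upregulated in this comparison. Its counts per 100 Atp2a1 counts had medians of 21.7 (Sed), 36.4 (Ex), 90.6 (CC-Sed) and 44.3 (CC-Ex).

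**Figure D3:**
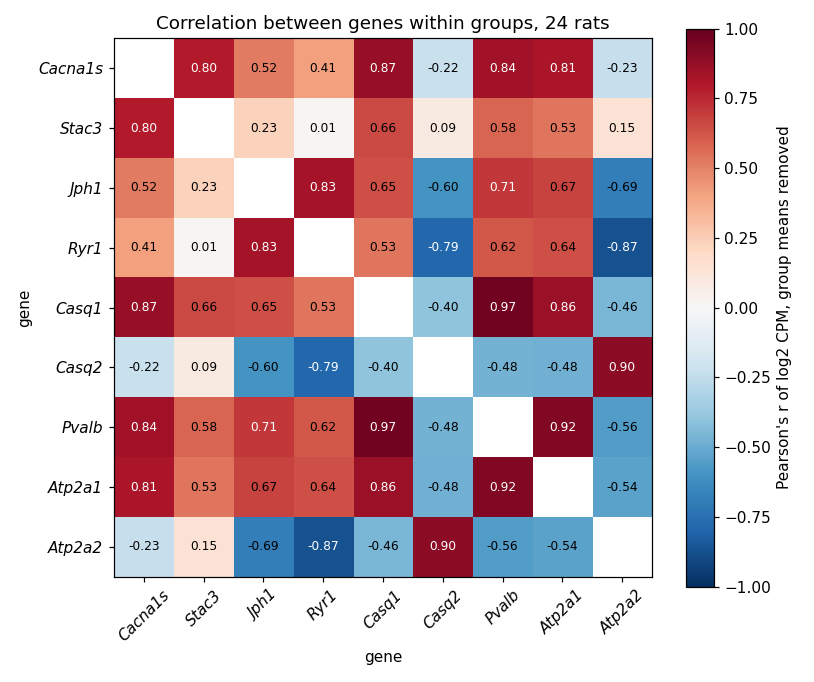
Pearson's r of log2 CPM between the 8 members and Atp2a2 over 24 rats after the group means were removed, from -1 (blue) to 1 (red). Casq1, Pvalb, Atp2a1 and Cacna1s correlate at 0.81 to 0.97 with each other, and Casq2 and Atp2a2 correlate at 0.90 with each other and negatively with Ryr1, Jph1, Pvalb, Casq1 and Atp2a1.

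These patterns went with the fibre-type markers. A fast-fibre score, the mean log2 CPM of the 8 markers, correlated with Pvalb at 0.946, Atp2a1 at 0.909, Casq1 at 0.901, Cacna1s at 0.818, Jph1 at 0.716, Ryr1 at 0.63 and Stac3 at 0.549. A slow-fibre score of the 7 slow markers correlated with Casq2 at 0.902 and Atp2a2 at 0.876, with Ryr1 at -0.802, and with Stac3 at -0.03. The medians of the summed markers differed between some of the groups, but in the edgeR model no gene of either list passed in any of the 7 comparisons. The 8 fast markers summed to medians of 145825 (Sed), 148379 (Ex), 90210 (CC-Sed) and 143870 CPM (CC-Ex), and all 8 had a negative average CC difference (median -0.23). The 7 slow markers summed to medians of 1423 (Sed), 2312 (Ex), 4855 (CC-Sed) and 3430 CPM (CC-Ex). In the same order they ranged from 132 to 2585, 83.4 to 7319, 114 to 8463 and 36.2 to 6164 CPM. All 7 slow markers had a positive difference in Sed vs. CC-Sed (median 1.64), and 6 of 7 on average (median 0.81). The paper, which used DESeq2, listed the slow markers Tnnc1, Tpm3, Tnni1 and Myl3 among its most upregulated genes in Sed vs. CC-Sed. With the slow-fibre score as a covariate, the average CC difference of Casq1 was -0.79 (adjusted p = 0.0074) and that of Stac3 -0.31 (adjusted p = 0.0369), and Pvalb (-1.02, adjusted p = 0.019), Jph1 (-0.39, adjusted p = 0.0272) and Casq2 (-0.67, adjusted p = 0.0469) passed as well, while 34.2% of all genes were called. With the fast-fibre score as a covariate, an alternative chosen after seeing the data, Casq1 gave -0.51 (adjusted p = 0.00348), Pvalb -0.60 (adjusted p = 0.00674) and Atp2a1 0.21 (adjusted p = 0.0302), and Stac3 no longer passed (-0.23, adjusted p = 0.121), while 17.2% of all genes were called.

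**Figure D4:**
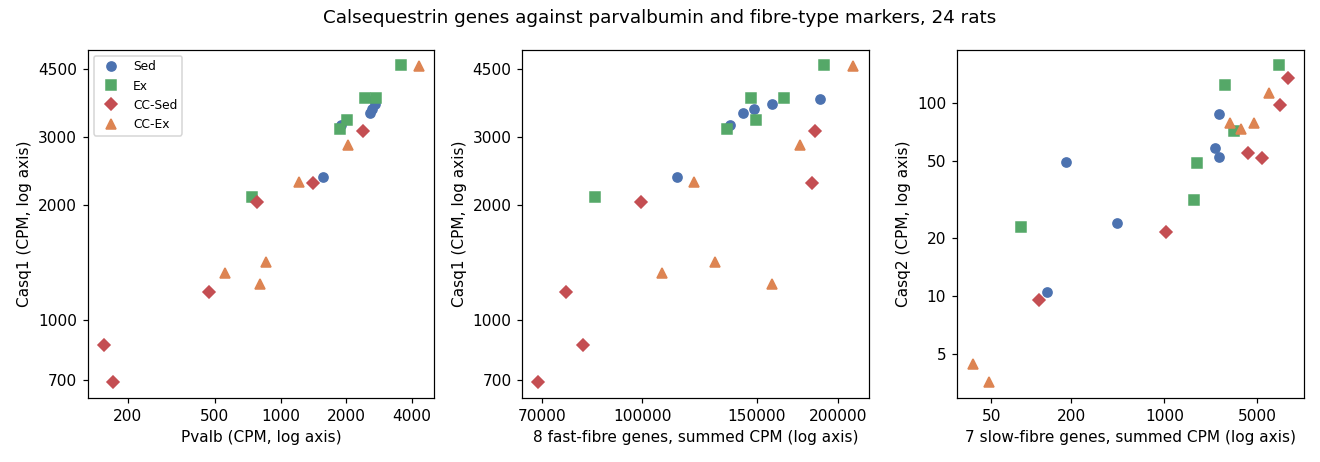
Each point is a rat, on log axes: Casq1 against Pvalb, Casq1 against the summed CPM of 8 fast-fibre genes, and Casq2 against the summed CPM of 7 slow-fibre genes. Casq1 and Pvalb lie along a single band from CC-Sed replicates 1 and 6 to CC-Ex replicate 4 and Ex replicate 1, and CC-Ex replicates 4 and 5 are lowest for both the slow markers and Casq2.

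Some markers of other cell types also differed between CC and control rats on average, where 17.2% of all genes rose and 10.6% fell. The endothelial genes Vwf and Kdr (2 of 6) and the erythroid genes Hbb and Hba-a1 (2 of 3) rose. The endothelial list as a whole was split, with 3 negative and 3 positive values (median 0.04). The fibroblast genes Col1a1, Col1a2 and Col3a1 (3 of 6), the smooth muscle genes Acta2 and Tagln (2 of 4) and the adipocyte gene Adipoq (1 of 3) fell. The summed fibroblast markers lay between 399 and 2836 CPM in Sed, 830.2 and 4962 in Ex, 481 and 1494 in CC-Sed and 151 and 1571 in CC-Ex. Among 7 denervation markers only Chrng was called (fell, Log2FC -0.20), and Myh3, Myog and Myh8, the other denervation genes with the highest levels, gave -0.32, 0.19 and -0.33 without passing. None of 5 macrophage markers passed. The part of these cell types in the differences of the calcium genes was not tested.

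Of the 52 genes of the wider calcium list in the table (58 were listed), 12 fell on average in the CC rats and none rose, against 10.6% of all genes falling and 17.2% rising. The wider list was also chosen with earlier results of these data known. Without CC-Ex replicates 4 and 5 the list had 18 called genes, with Atp2a2 among them as higher, while 29.2% of all genes were called. The median Log2FC was -0.08 over the 17 release and junction genes, -0.14 over the 17 uptake and extrusion genes and -0.26 over the 18 buffers and signalling genes, against 0.01 over all genes. Of the release and junction genes 4 fell: Sypl2 or mitsugumin 29, a tubule membrane protein (-1.04, SE 0.25, adjusted p = 0.00591; 748 to 365 CPM), the junctophilin Jph2 (-0.97, SE 0.288, adjusted p = 0.0179; 292 to 152 CPM), and the subunits of the voltage sensor complex Cacnb1 (-0.52, adjusted p = 0.0116) and Cacna2d1 (-0.45, adjusted p = 0.0232). All 12 CC rats lay below the control median of Sypl2 and 11 of 12 below that of Jph2. In Sed vs. CC-Sed, Sypl2 was called (-1.17, adjusted p = 0.0499), but this call remained only without CC-Sed replicate 2 or CC-Sed replicate 4 among the 12 fits with a rat left out. The rats of the 2 groups did not overlap for Sypl2, as for 3.61% of all genes. The gap was small, with the highest CC-Sed rat at 541.6 CPM and the lowest Sed rat at 547.0 CPM.

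Of the uptake and extrusion genes 3 fell: Stim2, a sensor of the calcium store (-0.52, adjusted p = 0.0146), Atp2b3, a plasma membrane calcium pump (-0.49, adjusted p = 0.0478), and Micu2, a regulator of mitochondrial calcium entry (-0.23, adjusted p = 0.0353). Of the buffers and signalling genes 5 fell: Calm2 (-0.72, SE 0.137, adjusted p = 0.00139; 164 to 99.8 CPM) and Calm3 (-0.66, adjusted p = 0.0365), which encode calmodulin, the kinase Camk2a (-0.57, adjusted p = 0.0298), and Ppp3r1 (-0.49, adjusted p = 0.0207) and Ppp3cb (-0.34, adjusted p = 0.0438), subunits of the phosphatase calcineurin. Calm2 and Calm3 encode the same protein, and how the estimate shared reads between such genes was not tested. In Sed vs. CC-Sed, Calm2 fell by 0.87 on the log2 scale (adjusted p = 0.0147), and it kept its call in each of the 12 fits with a rat left out. All 6 CC-Sed rats lay below all Sed rats for Calm2, while 3.61% of all genes did not overlap in this comparison. On average 7 of the 12 genes (Calm2, Sypl2, Cacnb1, Stim2, Jph2, Ppp3r1 and Cacna2d1) were called in all 24 fits that left a rat out. Camk2a was called in 21 of them (not without Sed replicate 3 or CC-Sed replicate 1 or 6), Micu2 in 13, Calm3 in 12, Ppp3cb in 9 and Atp2b3 in 6. In Sed vs. CC-Sed 2 of the 52 genes fell and 0 rose, against 6.46% of all genes called. At an unadjusted p under 0.05, 19 had a negative and 3 a positive difference, against 28.4% of all genes. In Ex vs. CC-Ex none of the 52 genes passed, against 0.995% of all genes. There, 3 had an unadjusted p under 0.05 and a negative difference, 1 in each part of the list, and 0 a positive difference, against 22.6% of all genes.

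**Figure D5:**
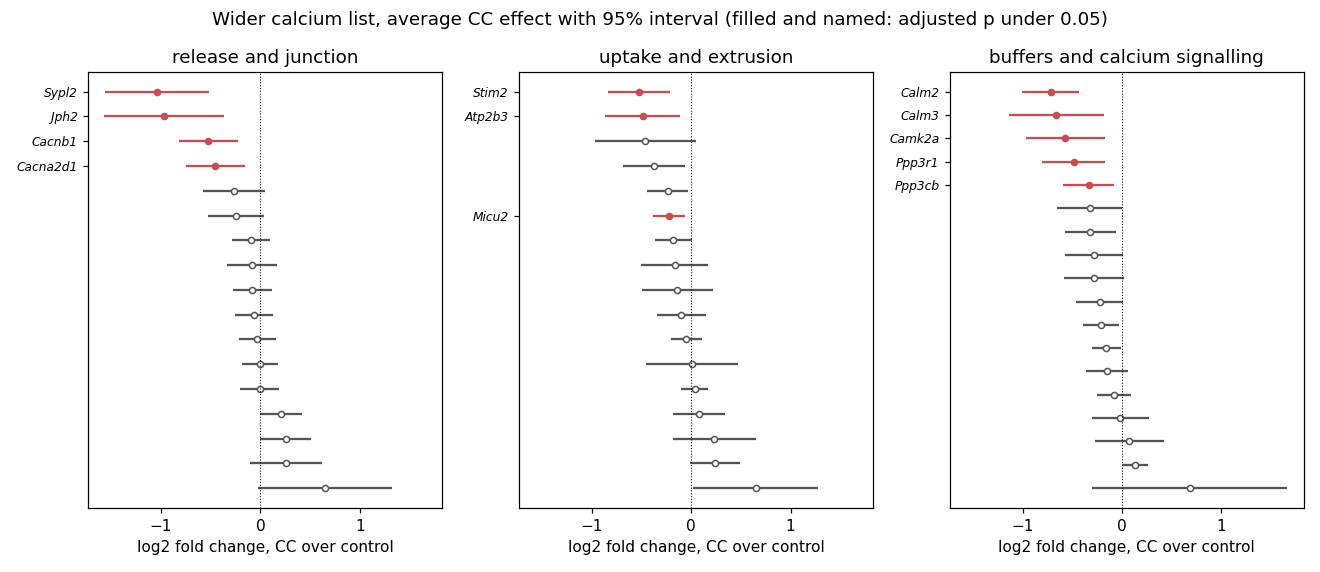
Average CC effect (Log2FC, points) with its 95% interval (lines) for the 52 genes of the wider calcium list, sorted within each part, with filled points and gene names for those with an adjusted p under 0.05. The 12 filled points are all negative, from -0.23 for Micu2 to -1.04 for Sypl2.

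The genes whose log2 CPM followed each member most closely over the 24 rats are named without reference to function shared with it. They were Rassf3 (r = 0.975), Pvalb (0.968) and Myl11 (0.968) for Casq1, and Gpd2 (0.976), Casq1 (0.968) and Tpm1 (0.964) for Pvalb. For Atp2a1 they were Pygm (0.946), Aldoa (0.935) and Ckm (0.933), genes of glycogen use, glycolysis and phosphocreatine. Ube2e3 (0.943) and Phkg1 (0.939) were among the closest for Cacna1s, and for Stac3 they were Vamp1 (0.942), Ache (0.931) and RGD1307461 (0.930). The correlations of Ryr1 (Mtdh 0.882, Rmnd5a 0.872, Mfsd8 0.868) and Jph1 (Micu3 0.863, Nudcd1 0.834, Ryk 0.828) were lower, and Casq2 was followed by the slow troponin gene Tnni1 (0.923), Cryl1 (0.913) and the embryonic myosin gene Myh3 (0.904).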

How the data were processed

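RNA from the medial gastrocnemius of 24 rats, 6 in each of 4 groups, was analysed. Groups and replicate numbers came from the titles of the samples. Trim Galore was used by the authors for trimming, and they quantified the reads with Salmon against the rat transcriptome of mRatBN7.2 and collapsed transcripts to genes with tximport. The deposited values are estimated counts (expected counts) in whole numbers, not scaled, and none is below 10, so low genes were already removed. The labels also name DESeq2 1.44.0 as used by the authors. Total counts ran from 37816239 to 50350554 per rat.

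Counts were analysed with edgeR 4.0.16 in R 4.3.3: TMM scaling, a quasi-likelihood model of the 4 groups over 24 rats, and 7 contrasts (4 pairwise, the interaction and the averages of the CC and of the training effects), with Benjamini-Hochberg adjustment over 10851 genes. A gene was called at an adjusted p under 0.05. SE was the size of Log2FC divided by the square root of F, and log2 CPM used a prior count of 2. The edgeR quasi-likelihood test replaced the DESeq2 test of the authors, which was run as an alternative (DESeq2 1.42.0). On simulated counts for Sed vs. CC-Sed over 10851 genes, edgeR recovered 75 of 100 genes changed by a log2 of 1 and 97 of 100 changed by a log2 of 2, with 9 false calls.

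The named genes were the members, Atp2a2, called genes of the wider list (at most 12, by adjusted p), the 3 genes most correlated with each member, and up to 4 markers per list, highest mean CPM first; 1 gene that this rule picked is not reported here. Members, lists and alternatives were chosen with earlier results of these data known. The alternatives were upper-quartile scaling, DESeq2, limma-voom with quality weights (limma 3.58.1), no low-count filter, a mean count of at least 100, only the 12 rats compared, a block for the replicate number, a covariate for the library number or for a slow-fibre score, the authors' call rule (Log2FC of at least 1 in size as well) and each rat left out. A fast-fibre score as a covariate and the fit without CC-Ex replicates 4 and 5 were added after seeing the data. Each library came from a separate animal, and same-numbered replicates of different groups are different animals.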

Additional observations from a re-analysis of the deposited data

Results flagged for a closer look

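Cacna1s in Sed replicate 3, at 1456 CPM, lay far from the other 5 Sed rats, the nearest of which was at 1188 CPM, a gap of 0.701 of the range of the group. Of 32 groups of 6 rats examined (8 genes in 4 groups) this was the only such rat, and chance alone gives such a rat in about 1 group in 20. No member had an interaction with training past the threshold.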

How the results depend on the processing

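On average over sedentary and exercised rats, Casq1 kept its direction and its call under the 10 other settings of the model, between -0.96 and -0.51 (adjusted p = 0.000895 to 0.0286), and in all 24 fits that left a rat out. Stac3 was called under 8 of these 10 settings, and not with the library number (-0.36, adjusted p = 0.0662) or the fast-fibre score (-0.23, adjusted p = 0.121) as a covariate. The library numbers were not balanced between the groups: they ran from 9 to 24 in Sed, 7 to 23 in Ex, 4 to 21 in CC-Sed and 1 to 14 in CC-Ex. The authors' call rule, which also asks for a Log2FC of at least 1 in size, left 0 members and 1 gene of the wider list on average, and 1 gene of the wider list in Sed vs. CC-Sed. The causes of the changes below were not tested. The share of all genes called moved as well, and on average it was 27.8% in the model as reported, 36.4% with limma-voom, 34.2% with the slow-fibre score, 17.2% with the fast-fibre score, 29.2% without CC-Ex replicates 4 and 5 and 20.3% to 35.3% with a rat left out. On average it was also 27% with upper-quartile scaling, 32.1% with DESeq2 and 30.1% with a mean count of at least 100. With the replicate block it was 25.5%, and with the library number 23.2%. The share in Sed vs. CC-Sed was 6.46%, against 6.47% with upper-quartile scaling, 12.3% with DESeq2, 22.8% with limma-voom, 5.1% with the replicate block, 8.15% with the library number, 0.728% with the fast-fibre score, 22.3% without CC-Ex replicates 4 and 5, 9% with only the 12 rats compared and 1.59% to 15.9% with a rat left out. In Ex vs. CC-Ex it was 0.995%, against 9.61% with limma-voom, 1.69% with the fast-fibre score, 1.92% without CC-Ex replicates 4 and 5 and 0.0184% to 7.81% with a rat left out.

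The number of members called on average went from 2 to 3 with upper-quartile scaling, DESeq2 or the fast-fibre score. It went to 4 with limma-voom, 5 with the slow-fibre score and 4 without CC-Ex replicates 4 and 5. With a rat left out it ran from 1 to 4. It was 1 without Sed replicate 2 or 3, Ex replicate 1, 2 or 6, CC-Sed replicate 1 or 6, or CC-Ex replicate 3. It was 3 without Sed replicate 1, and 4 without CC-Sed replicate 2 or CC-Ex replicate 4. In Sed vs. CC-Sed it went from 0 to 1 with DESeq2, 3 with limma-voom and 2 without CC-Ex replicates 4 and 5, and with a rat left out from 0 to 2, the latter without CC-Sed replicate 2. In Ex vs. CC-Ex it went from 0 to 1, Casq1, with the fast-fibre score (-0.58, adjusted p = 0.0369).

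In the wider list, the count on average went from 12 to 22 with limma-voom and 7 with the fast-fibre score, and from 7 (without Sed replicate 3 or CC-Sed replicate 1 or 6) to 17 with a rat left out. In Sed vs. CC-Sed it went from 2 to 1 with upper-quartile scaling, 9 with DESeq2, 14 with limma-voom, 1 with the replicate block, 5 with the library number, 0 with the fast-fibre score, 13 without CC-Ex replicates 4 and 5 and 6 with only the 12 rats compared, and from 1 to 12 with a rat left out (12 without CC-Sed replicate 2, 8 without CC-Sed replicate 4 and 1 without any of the other 10). In Ex vs. CC-Ex it went from 0 to 3 with limma-voom and 1 without CC-Ex replicates 4 and 5, and from 0 to 2 with a rat left out, the latter without CC-Ex replicate 4.

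Several differences that were not called in the model as reported changed sign. In Sed vs. CC-Sed these were Atp2a1 with the fast-fibre score (0.18), Ryr1 with upper-quartile scaling (-0.047) and the library number (-0.049), and Casq2 with the slow-fibre score (-0.86) and the fast-fibre score (-0.72). In Ex vs. CC-Ex they were Ryr1 with limma-voom (-0.0070), the library number (-0.029) and without CC-Ex replicates 4 and 5 (-0.038), and Casq2 with limma-voom (0.17), the library number (0.44) and without CC-Ex replicates 4 and 5 (0.18). On average they were Atp2a1 with upper-quartile scaling (-0.065), DESeq2 (-0.0040), limma-voom (-0.030), a mean count of at least 100 (-0.013), the replicate block (-0.010), the library number (-0.11) and without CC-Ex replicates 4 and 5 (-0.014), Ryr1 with upper-quartile scaling (-0.015), the library number (-0.039) and without CC-Ex replicates 4 and 5 (-0.0040), and Casq2 with upper-quartile scaling (-0.048), DESeq2 (-0.00025), a mean count of at least 100 (-0.0030), the slow-fibre score (-0.67) and the fast-fibre score (-0.57). For training, Casq2 in Sed vs. Ex changed sign with the slow-fibre score (-0.079), and Casq1 with the fast-fibre score in CC-Sed vs. CC-Ex (-0.067) and in the interaction (-0.14). With a rat left out, the ranges that crossed 0 were -0.062 to 0.10 for Ryr1 and -0.0021 to 0.66 for Casq2 in Sed vs. CC-Sed, and -0.083 to 0.040 for Atp2a1 and -0.19 to 0.18 for Casq2 on average.

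No pairing of the rats was named by the authors. The mean correlation of same-numbered rats lay between -0.23 and 0.09 over the 4 pairwise comparisons. Single values ran from -0.59 to 0.37, so these correlations cannot exclude a pairing. The replicate block changed no call of a member. No low-count filter gave the same values, since every gene had at least 10 counts. The 26 other training and interaction differences of the members were not called under any alternative (lowest adjusted p = 0.556), but 82 of their 752 values under the alternatives had the opposite sign, with sizes up to 0.81. The limit on precision is the spread between rats, above all for Casq2 and Pvalb, and not the depth.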
